A study of Homo sapiens with 6 samples.

Results

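The long noncoding RNAs MALAT1 and NEAT1 were followed through 3 transcripts, chosen by their Ensembl identifiers from the 203028 transcripts quantified in each library: ENST00000534336 for MALAT1, ENST00000501122 for the long form of NEAT1 and ENST00000499732 for its short form. The study sequenced polyadenylated RNA of HEK293 cells, an established human embryonic kidney cell line, in 3 libraries with a scrambled control shRNA and 3 with an shRNA against PRPF39, a splicing factor that works with the U1 particle at 5' splice sites. In both groups the shRNA came by lentivirus and cells with an integrated construct were kept with puromycin, so the controls carry a vector and the selection too. The shRNA sequences and the time after selection are not given in the sources used here. The labels do not say whether replicates were separate transductions or cultures, so p-values measure the spread between libraries, which may be technical. PRPF39 itself could not be matched to transcript identifiers and was not analysed here, so the group labels were not checked against its level.

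MALAT1 is a nuclear RNA that gathers at nuclear speckles, the bodies where splicing factors are stored and modified. NEAT1 is the scaffold of paraspeckles, which form beside the speckles around the long form of the RNA. The short form ends at an upstream polyadenylation signal and does not build paraspeckles by itself. MALAT1 and long NEAT1 are largely unspliced, and both get their 3' end from cleavage by RNase P next to a tRNA-like sequence, which leaves an end held in a triple helix in place of an ordinary poly(A) tail. They were measured here in libraries of polyadenylated RNA, so a level is that of the RNA which passed this selection.

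Both genes lie on chromosome 11. In RefSeq's annotation of GRCh38.p14, NEAT1 spans chr11:65422798-65445540 and MALAT1 spans chr11:65497738-65506516, with 52197 bases between them. The long NEAT1 transcript was 22743 bases long in the files, exactly the span of the gene, as an unspliced RNA of the whole locus would be. The short transcript was 3441 bases long, so the long form was 6.61 times its length. MIR612, a microRNA gene, begins at base 21661 of the NEAT1 span. The MALAT1 transcript was 8708 bases long, 71 fewer than the gene's span of 8779. The antisense RNA gene TALAM1 covers 82.1% of the MALAT1 span, and whether the libraries kept strand is not given in the sources used here, so reads of the pair cannot be told apart. The 58-base MASCRNA, the tRNA-like piece released when MALAT1 is cleaved, lies inside the span.

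RefSeq gives MALAT1 more than 1 start site, and the promoter windows of a pair of them are shown because they bear on which RNA the 8708-base transcript can be. Each window runs from 250 bases before a start to 50 after it on the plus strand, at chr11:65497488-65497787 for the first start and chr11:65498795-65499094 for the second. Capitals mark matches, on either strand, to the GC box GGGCGG, a binding sequence of SP factors, and to the TATA box TATAAA.
MALAT1 start 1: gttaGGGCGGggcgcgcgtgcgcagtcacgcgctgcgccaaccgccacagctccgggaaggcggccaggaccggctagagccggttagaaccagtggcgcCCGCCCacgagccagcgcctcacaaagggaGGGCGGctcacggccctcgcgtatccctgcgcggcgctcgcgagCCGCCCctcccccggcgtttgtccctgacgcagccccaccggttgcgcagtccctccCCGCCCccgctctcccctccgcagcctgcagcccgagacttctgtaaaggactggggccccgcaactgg
MALAT1 start 2: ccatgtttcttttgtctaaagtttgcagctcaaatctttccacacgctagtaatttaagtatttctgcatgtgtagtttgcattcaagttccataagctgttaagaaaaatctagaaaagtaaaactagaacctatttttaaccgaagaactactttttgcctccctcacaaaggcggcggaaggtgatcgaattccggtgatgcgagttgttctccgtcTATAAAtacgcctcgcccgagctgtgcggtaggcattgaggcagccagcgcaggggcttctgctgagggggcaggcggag
From the first start to the end of the gene there are 8779 bases. The second start lies 1307 bases downstream and leaves 7472 bases, fewer than the transcript's 8708. The deposited MALAT1 transcript is therefore longer than an RNA that begins at the second start and ends with the gene. The first window has 5 GC box matches, no TATA box match and a GC content of 73.7%. The second has no GC box match, 1 TATA box match and a GC content of 46%. Of 35116 RefSeq promoter windows of this length, 45% hold the GC box letters and 11.5% the TATA box letters, and the median GC content is 58.7%.

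The libraries held 113747941 to 246491084 estimated reads, and the 3 transcripts together took 0.00643% to 0.0163% of them. The fewest reads behind any value were 1748, for long NEAT1 in control replicate 2, where counting error alone is 2.39%. The quantifier's effective lengths moved little between libraries, from 16246 to 16493 bases for long NEAT1, for example. Other transcripts of both genes may be in the files, but nothing used here pairs identifiers with genes, so a value is that of 1 transcript and not of a whole gene.

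MALAT1 showed no difference between the groups beyond the spread of the libraries. Its level was 8.13, 4.69 and 15.06 TPM (the authors' abundance measure, which corrects for length and depth) in control replicates 1, 2 and 3. In PRPF39 shRNA replicates 1, 2 and 3 it was 8.34, 9.70 and 11.43 TPM. The lowest and the highest library were both controls, and all 3 PRPF39 shRNA values lay between them. Mean MALAT1 was 9.29 ± 5.28 TPM for control against 9.83 ± 1.55 TPM for PRPF39 shRNA (SD, n = 3 each), 1.06-fold apart (exact two-sided permutation p = 0.8). The fitted log2 fold change was 0.06 ± 0.37 (SE), with a 95% interval from -0.82 to 0.95 (adjusted p = 0.959, edgeR's quasi-likelihood test with Benjamini-Hochberg adjustment over 97571 transcripts). The sign of this estimate rested on single libraries. It was 0.62 without control replicate 3 (adjusted p = 0.297, edgeR) and -0.22 without control replicate 2 (adjusted p = 0.814, edgeR). By TPM, MALAT1 ranked above 91.4% to 96.4% of all 203028 transcripts quantified, depending on the library. Only 97571 of these had reads enough to be tested.

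Long NEAT1, the form that builds paraspeckles, was the lowest of the 3 by TPM in these libraries of polyadenylated RNA. It did not differ between the groups beyond their spread either. Its level was 1.501, 0.75 and 2.64 TPM in control replicates 1, 2 and 3. It stood at 1.45, 1.90 and 2.40 TPM in PRPF39 shRNA replicates 1, 2 and 3. As for MALAT1, control replicate 2 was the lowest library and control replicate 3 the highest. Its mean was 1.63 ± 0.95 TPM for control against 1.92 ± 0.47 TPM for PRPF39 shRNA (SD, n = 3 each; exact two-sided permutation p = 0.8). The log2 fold change was 0.21 ± 0.41 (SE), with a 95% interval from -0.76 to 1.18 (adjusted p = 0.858, edgeR). Without control replicate 3 it was 0.77 (adjusted p = 0.368, edgeR), and without control replicate 2 it was -0.10 (adjusted p = 0.928, edgeR).

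Short NEAT1, the polyadenylated form, was the most abundant of the 3 per length in every library, and its levels lay higher with PRPF39 shRNA without passing the test. Control replicates 1, 2 and 3 held 12.92, 10.10 and 17.03 TPM. PRPF39 shRNA replicates 1, 2 and 3 held 16.49, 19.59 and 23.48 TPM. Only PRPF39 shRNA replicate 1 lay below a control, control replicate 3, and the groups overlapped by that pair alone. Groups without overlap in CPM were found for 25.3% of all transcripts tested and 43.1% of those with a mean of at least 10 CPM (read counts scaled to library size and composition, not to length). Mean short NEAT1 was 13.4 ± 3.48 TPM for control against 19.9 ± 3.50 TPM for PRPF39 shRNA (SD, n = 3 each), a 1.49-fold difference (exact two-sided permutation p = 0.2, where 3 libraries against 3 cannot go below 0.1). The log2 fold change was 0.55 ± 0.20 (SE), with a 95% interval from 0.08 to 1.02, an unadjusted p of 0.0277 and an adjusted p of 0.245 (edgeR). DESeq2 started from the same transcripts and placed it just past the threshold. Its log2 fold change there was 0.56 ± 0.21 (SE) and its adjusted p 0.0478 (DESeq2). By default DESeq2 leaves transcripts of low mean count without an adjusted p, so its adjustment ran over fewer transcripts than that of edgeR. The estimate was positive in every fit made, from 0.44 to 0.77, with adjusted p from 0.0478 in DESeq2 to 0.503 (edgeR) without PRPF39 shRNA replicate 3.

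**Figure D1:**
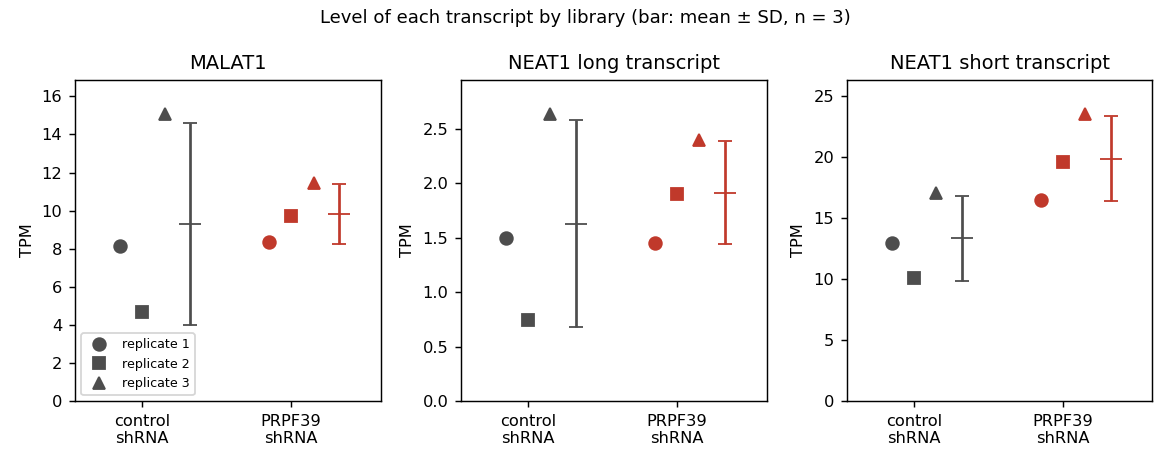
TPM of MALAT1, long NEAT1 and short NEAT1 (one panel each, y axis from 0) in the 3 control shRNA libraries (grey) and the 3 PRPF39 shRNA libraries (red). Symbols give the replicate number and bars the mean ± SD (n = 3). Control replicate 2 is the lowest library in all 3 panels, control replicate 3 is the highest for MALAT1 (15.06 TPM) and long NEAT1 (2.64 TPM), and PRPF39 shRNA replicate 3 is the highest for short NEAT1 (23.48 TPM).

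None of the 3 was called by edgeR, against 0.904% of all 97571 transcripts tested and 3.43% of the 13988 with a mean of at least 10 CPM, an abundance that all 3 reached. An unadjusted p under 0.05, as short NEAT1 had, was shared by 16.1% of all transcripts and 37% of those of at least 10 CPM. DESeq2 called 9.25% of transcripts, 5.02% as higher with PRPF39 shRNA, so its call of short NEAT1 was 1 of 4898. These DESeq2 shares are over all 97571 transcripts, including those that its filter left without an adjusted p and that could not be called. The shares among the transcripts it adjusted are therefore higher. Neither these nor the shares among transcripts of at least 10 CPM were computed. For 29.3% of the transcripts of at least 10 CPM the unadjusted p was lower than for short NEAT1 (edgeR). Log2 fold changes were also ranked with their sign, which leaves larger decreases out. That of short NEAT1 was exceeded by 7.36% of the transcripts of at least 10 CPM, that of long NEAT1 by 32% and that of MALAT1 by 49.7%. The fold change of MALAT1 was thus near the middle of the transcripts of at least 10 CPM, whose median log2 fold change was 0.06.

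**Figure D2:**
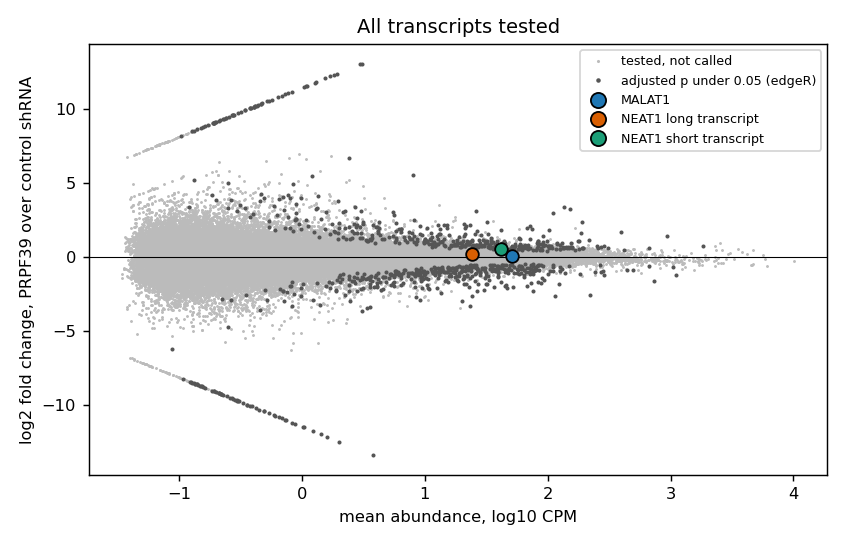
Log2 fold change of PRPF39 shRNA over control shRNA (y axis) against mean abundance in log10 CPM (x axis) for all 97571 transcripts tested; dark points have an adjusted p under 0.05 (edgeR), and the slanting outer lines hold transcripts with no reads in 1 group, whose fold changes have no fixed size. MALAT1 (0.06) and long NEAT1 (0.21) lie close to the zero line, and short NEAT1 (0.55) lies near the upper edge of the grey band, among transcripts that were not called.

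The 2 NEAT1 forms were then added. A sum of TPM still depends on how the quantifier divided reads between the forms, since a read weighs more in the short one, whereas a sum of reads does not. In TPM the sum stood at 14.4, 10.9 and 19.7 TPM in control replicates 1, 2 and 3. In PRPF39 shRNA replicates 1, 2 and 3 the sum was 17.9, 21.5 and 25.9 TPM. Control replicate 3 again lay above PRPF39 shRNA replicate 1, so the groups overlapped. The summed level averaged 14.98 ± 4.43 TPM for control against 21.8 ± 3.98 TPM for PRPF39 shRNA (SD, n = 3 each; exact two-sided permutation p = 0.2). That is a 1.45-fold difference in TPM. With the summed reads in place of the separate rows, the log2 fold change was 0.42 ± 0.27 (SE), with a 95% interval from -0.22 to 1.07 (adjusted p = 0.508, edgeR). With offsets from the effective lengths, which bring the division back in, it was 0.52 ± 0.22 (SE), with an interval from 0.0059 to 1.03 (adjusted p = 0.307, edgeR). Without control replicate 3 it was 0.77 (adjusted p = 0.199, edgeR).

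The share of the long form asks whether the balance between the NEAT1 forms moved with PRPF39 shRNA, and no such difference was found beyond the spread of the controls. Long NEAT1 made up 10.4%, 6.91% and 13.4% of NEAT1 TPM in control replicates 1, 2 and 3. It made up 8.09%, 8.85% and 9.26% in PRPF39 shRNA replicates 1, 2 and 3. The PRPF39 shRNA libraries lay close together, inside the range of the controls. The share averaged 10.2% ± 3.25 for control against 8.73% ± 0.60 for PRPF39 shRNA (SD, n = 3 each; exact two-sided permutation p = 0.6). The difference was -1.51 percentage points, and 0.07 without control replicate 3. By TPM, the short form stood at 6.46 to 13.5 times the long one in these libraries of polyadenylated RNA. The long form lacks an ordinary poly(A) tail, so the balance of the forms in the cells cannot be read from this share. Because the long form is so much longer, it took a far larger share of the reads, 38.0% ± 8.58 for control against 34.3% ± 1.67 for PRPF39 shRNA (SD, n = 3 each). On the log2 scale the ratio of long to short was -3.18 ± 0.53 for control against -3.39 ± 0.11 for PRPF39 shRNA (SD, n = 3 each), so the test of unequal change of the forms also gave an exact two-sided permutation p of 0.6.

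Between genes, the ratio to MALAT1 varied less for long NEAT1 than for short NEAT1 over the 6 libraries and in the controls. Within the PRPF39 shRNA libraries the order was the reverse. These ratios were chosen after the values were seen. The TPM of long NEAT1 over that of MALAT1 was 0.185, 0.160 and 0.175 in control replicates 1, 2 and 3. It was 0.174, 0.196 and 0.210 in PRPF39 shRNA replicates 1, 2 and 3. Over all 6 libraries the highest ratio was 1.31 times the lowest, although MALAT1 itself varied from 4.69 to 15.06 TPM. Short NEAT1 over MALAT1 was 1.59, 2.15 and 1.13 in control replicates 1, 2 and 3. It was 1.98, 2.02 and 2.05 in PRPF39 shRNA replicates 1, 2 and 3. The PRPF39 shRNA libraries thus held almost the same ratio of short NEAT1 to MALAT1, with the highest 1.04 times the lowest. In the controls the highest was 1.90 times the lowest. For long NEAT1 over MALAT1 the highest was 1.21 times the lowest with PRPF39 shRNA and 1.16 times in the controls. Neither log2 ratio differed between groups beyond the spread, at a difference of 0.16 for long NEAT1 over MALAT1 (exact two-sided permutation p = 0.3) and of 0.36 for short NEAT1 over MALAT1 (exact two-sided permutation p = 0.4). The log2 ratio of the NEAT1 sum to MALAT1 was 0.81 ± 0.41 for control against 1.14 ± 0.04 for PRPF39 shRNA (SD, n = 3 each; exact two-sided permutation p = 0.4). Over the 9 exact tests of levels, shares and ratios the lowest adjusted p was 0.72.

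**Figure D3:**
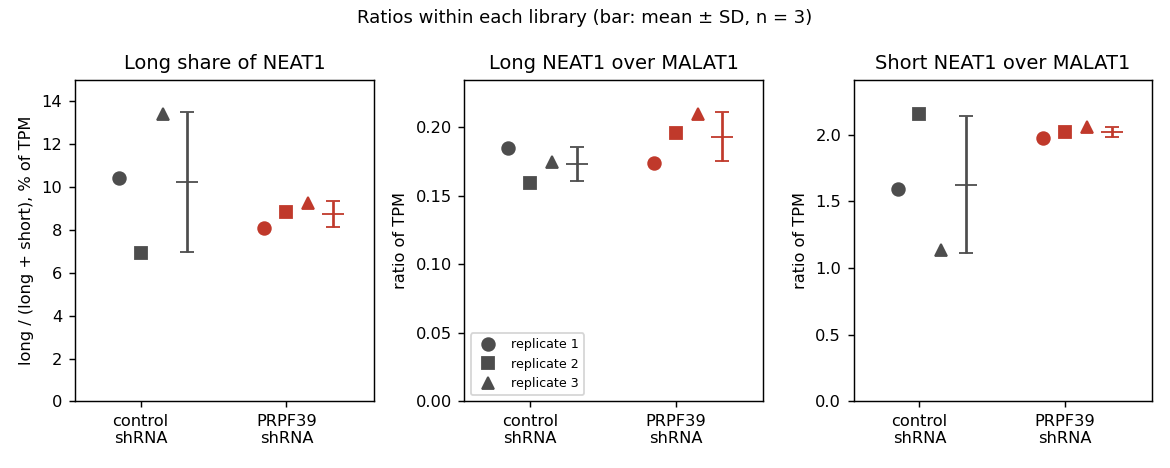
Share of the long form in NEAT1 TPM (left), long NEAT1 over MALAT1 (middle) and short NEAT1 over MALAT1 (right), each y axis from 0, by library, with the mean ± SD (n = 3) as bars; grey is control and red PRPF39 shRNA. Long NEAT1 over MALAT1 stays between 0.160 and 0.210 in all 6 libraries, while the share and the short ratio spread widely in the controls alone.

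The controls disagreed with each other about these RNAs far more than about most. Among the 13988 transcripts of at least 10 CPM, the highest control library was typically 1.24 times the lowest (median). For MALAT1 it was 2.89 times the lowest, at 39.7, 28.4 and 82.0 CPM in control replicates 1, 2 and 3, a wider range than for 99.5% of those transcripts. For long NEAT1 it was 3.18 times the lowest, at 18.7, 11.6 and 36.8 CPM, wider than for 99.6%. Short NEAT1 was steadier, at 29.3, 28.4 and 43.0 CPM, a ratio of 1.52 and wider than for 86.6%. In the PRPF39 shRNA libraries the corresponding ratios were 1.33 for MALAT1, 1.58 for long NEAT1 and 1.37 for short NEAT1, against a median of 1.17. These ranges were wider than for 81.6%, 94.6% and 85.4% of those transcripts, so the RNAs varied more than most in this group too. The source of these ranges was not tested.

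The profiles over the 6 libraries placed long NEAT1 nearer to MALAT1, the neighbouring gene, than to the short form of its own gene. Likeness was the root-mean-square difference of log2 CPM, each transcript centred on its own mean, among the transcripts of at least 10 CPM. MALAT1 and long NEAT1 differed by 0.12, and each was the nearest of the 13987 other transcripts to the other. The next nearest transcript differed from MALAT1 by 0.13 and from long NEAT1 by 0.17, against medians over all of 0.55 and 0.61. Short NEAT1 ranked 53rd for MALAT1 at 0.32 and 18th for long NEAT1 at 0.33. With a library left out, its rank ran from 57 to 2116 for MALAT1 and from 16 to 596 for long NEAT1. Both high ends came without control replicate 2. Seen from short NEAT1, MALAT1 ranked only 2449th and long NEAT1 2929th. The points share their libraries, and few transcripts vary as widely, so a rank describes these 6 libraries only. With each library left out in turn, MALAT1 stayed the nearest to long NEAT1 in all 6 cases, while the rank of long NEAT1 for MALAT1 ran from 1 to 53, the last without control replicate 3. On log2(TPM + 1) the ranks were 4 and 2. The transcript most like short NEAT1 was ENST00000436757, 4216 bases long and not matched to a gene, at 0.10. It stood at 11.8, 11.5 and 15.1 CPM in control replicates 1, 2 and 3 and at 16.0, 21.6 and 20.6 CPM in PRPF39 shRNA replicates 1, 2 and 3 (log2 fold change 0.60 ± 0.16, SE; adjusted p = 0.156, edgeR).

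**Figure D4:**
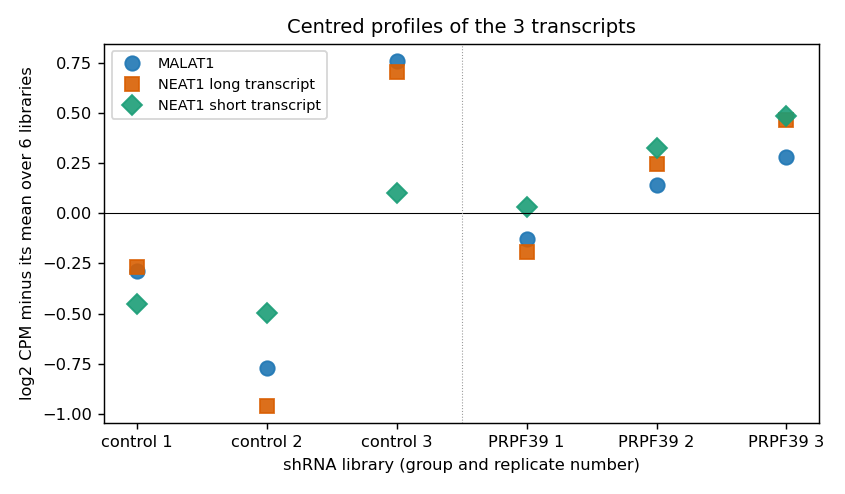
Log2 CPM of each transcript minus its mean over the 6 libraries (y axis), by library (x axis), for MALAT1 (circles), long NEAT1 (squares) and short NEAT1 (diamonds). MALAT1 and long NEAT1 run together from -0.77 and -0.96 in control replicate 2 to 0.76 and 0.71 in control replicate 3, where short NEAT1 is at 0.10; in PRPF39 shRNA replicate 3 long NEAT1 (0.47) lies nearer to short NEAT1 (0.49) than to MALAT1 (0.28).

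Long transcripts as a class were set beside all transcripts, as a description without a test. Of the transcripts at least as long as MALAT1, 1388 were tested, of which 13 were higher and 27 lower with PRPF39 shRNA (edgeR), or 2.88%, against 0.904% of all transcripts tested. Among those with a mean of at least 10 CPM, 11 of 712 long transcripts were higher and 16 lower (edgeR), or 3.79%, against 3.43% of all transcripts of that abundance, and their median log2 fold change was -0.03 against 0.06. Without the limit on abundance, the median log2 fold change of the long transcripts was -0.04, against -0.02 over all transcripts tested. Also without that limit, the median log2 deviation of the long transcripts relative to all transcripts was 0.14, -0.11 and -0.07 in control replicates 1, 2 and 3. In the PRPF39 shRNA libraries this median lay between -0.10 and 0.00. MALAT1 and long NEAT1 were highest in control replicate 3, and whether length bears on their levels was not tested.

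The estimates of all 4 quantities depended most on control replicate 3. Without it the log2 fold changes came close to each other, at 0.62 for MALAT1, 0.77 for long NEAT1, 0.77 for short NEAT1 and 0.77 for the NEAT1 sum, with unadjusted p of 0.021, 0.0372, 0.00268 and 0.00649 and adjusted p of 0.297, 0.368, 0.149 and 0.199 (edgeR). In that fit 12670 of 102642 transcripts had an unadjusted p under 0.05 (edgeR), and 11 were called in all. The NEAT1 sum holds the reads of both forms, so the NEAT1 values are not independent of each other. Leaving out control replicate 2 instead gave -0.22, -0.10, 0.44 and 0.23 for the same 4.

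**Figure D5:**
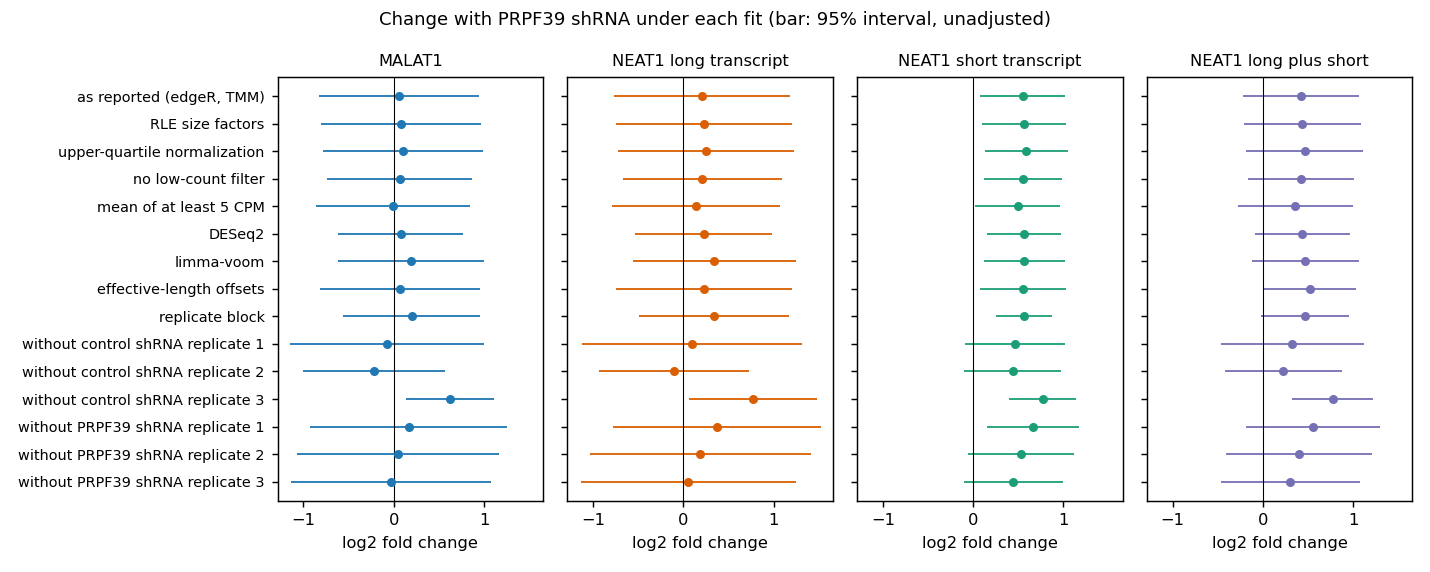
Log2 fold change with its unadjusted 95% interval (x axis) for MALAT1, long NEAT1, short NEAT1 and the NEAT1 sum under the reported fit and 14 alternatives (rows). Short NEAT1 lies between 0.44 and 0.77 in every row, while MALAT1 runs from -0.22 without control replicate 2 to 0.62 without control replicate 3.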

How the data were processed

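The authors deposited 1 transcript table per library with length, effective length, TPM and estimated counts, per the file headers. TPM is the authors' own scaling by each library's effective lengths, and the estimated counts are unscaled and mostly not whole. The submitters' processing notes name Salmon 0.11.1, STAR 2.7.9a, cutadapt 2.1, DESeq2 1.32.0 and build hg38. Options, strand setting and annotation release are not given in the sources used here. Salmon divides reads that match several transcripts by a model, so the NEAT1 forms depend on each other, and the files carry no estimate of that error.

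Groups and replicate numbers came from the sample titles. Rounded counts went into edgeR 4.0.16 under R 4.3.3, with filterByExpr at a minimum count of 10, TMM, quasi-likelihood test over all 6 libraries, Benjamini-Hochberg over all transcripts tested, threshold 0.05. CPM uses TMM factors, and log2 CPM a prior count of 2. SE is the log2 fold change over the root of F, and 95% intervals use the test's degrees of freedom. For the NEAT1 sum its 2 rows were added and the table refitted. Levels, shares and ratios were compared by exact permutation tests (scipy 1.17.1). The edgeR script was tested on simulated data. No library was counted as a duplicate (chi-square per degree of freedom of at least 32 between libraries).

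The members and lists were chosen with earlier results of these data known. Named transcripts were the members, their sum and, for each member, the transcript of at least 10 CPM with the most similar profile. A list of speckle and paraspeckle protein genes was planned and not run, since no table used here pairs transcripts with genes. Alternatives were RLE and upper-quartile normalization, no low-count filter, DESeq2 1.42.0, a minimum mean of 5 CPM, limma-voom with limma 3.58.1, effective-length offsets, a replicate block, each library left out, annotated lengths, reads in place of TPM and log2(TPM + 1). The ratios of each NEAT1 form to MALAT1 and the alternatives to the profile ranks were chosen after the data were seen.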

Additional observations from a re-analysis of the deposited data

How the results depend on the processing

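Of 133 alternative values for the 3 transcripts, the NEAT1 sum, the share and the ratios, 121 were counted as unchanged. Among them was every value for the NEAT1 sum and for the ratios of each NEAT1 form to MALAT1. Log2 fold changes had to keep direction and side of the threshold, whereas values from exact tests were judged by direction alone. Some of these could not differ: a replicate block leaves the share and the ratios as they are. Annotated lengths and reads also give the same change in the log2 ratio of 1 transcript to another. The count is therefore no measure of stability. Short NEAT1 passed in DESeq2 alone (log2 fold change 0.56, adjusted p = 0.0478), whose adjustment ran over fewer transcripts than that of edgeR. Over the 14 alternatives for short NEAT1, adjusted p ran from 0.0478 to 0.503 (edgeR, limma and DESeq2). MALAT1 was at -0.0066 when a mean of at least 5 CPM was asked for. Leaving out each library, its log2 fold change ran from -0.22 to 0.62 and its TPM difference from -1.77 to 3.41, and for long NEAT1 these ran from -0.10 to 0.77 and from -0.15 to 0.79. The difference in long share ran from -3.17 to 0.074 percentage points, and that of the log2 ratio of long to short from -0.49 to 0.041. Low and high ends came without control replicates 2 and 3. The number of transcripts called was 882 of 97571 (0.904%). It became 3575 of 20216 (17.7%) at a mean of at least 5 CPM and 9024 of 97571 (9.25%) in DESeq2. With a library left out it was 0 to 22, at most 0.0214%. The cause was not tested. With replicate number as a replicate block 0 were called, with 14264 at an unadjusted p under 0.05 (edgeR), and DESeq2 and limma-voom without the block called 9024 and 876. Under that block the log2 fold changes were 0.20 for MALAT1, 0.34 for long NEAT1, 0.56 for short NEAT1 and 0.47 for the NEAT1 sum (adjusted p = 0.777, 0.653, 0.213 and 0.353, edgeR). Nothing in the labels makes equal numbers a pair, and deviations of same-numbered libraries correlated at 0.16, 0.03 and 0.00 (numbers 1, 2 and 3), so they were not taken as pairs. Exact tests of 3 against 3 libraries cannot give a p under 0.1, so their outcomes say nothing of stability. At least 1748 estimated reads stood behind every value, a number that says nothing of the error in dividing reads between the NEAT1 forms.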
